A study of Homo sapiens with 16 samples.

Results

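The genes examined here encode the nuclear subunits of respiratory complexes II, III, IV and V. The set was defined by a rule on symbols, and was chosen with earlier results of these data known. It holds the protein-coding genes SDHA to SDHD (complex II), those beginning with UQCR (complex III), those beginning with COX4 to COX8 (complex IV) and those beginning with ATP5 (complex V). The rule found 50 of the 58051 genes in the deposited table, of which 4 belong to complex II, 9 to complex III, 17 to complex IV and 20 to complex V. A further 119 genes whose symbols fit the pattern are not protein-coding and were left out. In the set are also 2 genes whose products are not subunits in the strict sense: ATP5IF1 encodes an inhibitor of complex V, and COX7A2L encodes a factor that joins complexes III and IV.

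The 16 RNA-seq libraries come from P493-6, a human B cell line, immortalised, that carries a MYC transgene which doxycycline represses and an estrogen-dependent form of the viral protein EBNA2. The 4 groups of 4 libraries were high MYC with DMSO, high MYC with IMP1088, medium MYC with DMSO and medium MYC with IMP1088. Medium MYC cells had 0.1 µg/mL doxycycline and 1 µM β-estradiol, begun 24 h before treatment, while high MYC cells had neither, both in DMEM with 10% FBS, so MYC level, doxycycline and estradiol cannot be told apart. IMP1088 inhibits the N-myristoyltransferases, which attach myristate to proteins, and was given at 100 nM for 24 h, per the labels. All libraries come from 1 cell line, and the labels do not say whether replicates were separate cultures, so p-values measure the spread between these libraries, which may be technical.

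The respiratory chain sits in the inner mitochondrial membrane. Complex II (succinate dehydrogenase) passes electrons from succinate to ubiquinone, complex III passes them from ubiquinol to cytochrome c, and complex IV passes them on to oxygen, while complex V (ATP synthase) uses the proton gradient to make ATP. Complexes III, IV and V also hold subunits encoded by mitochondrial DNA, complex II does not, and several nuclear subunits of complex IV come in tissue-specific isoforms.

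Promoters are shown first because MYC level defines the groups and MYC with its partner MAX binds the E-box CACGTG. The RefSeq promoter table (GRCh38.p14, 250 bases before to 50 bases after each start) held 34 of the 50 genes. The E-box was found in 4 of these 34 (11.8%), against 7.43% of all 27305 promoters in the table. The ETS motif CCGGAAG, bound by GABPA among others, was found in 15 (44.1%, against 10.7% of all), and GCGCATG, part of the NRF1 site, in 8 (23.5%, against 4.67%). ATGGCG, part of the YY1 motif, was found in 8 (23.5%, against 11.0%). The 27305 promoters were not limited to expressed genes, so these shares do not compare like with like. Both strands were searched, and none of these letter strings contains another. Each line below gives 30 bases on the gene's own strand, 5′ to 3′, with the match in capitals; positions count the first transcribed base in RefSeq as 1, with no base 0. The first 4 are all the promoters with an E-box: UQCR11 (chr19:1605632-1605661, minus strand, match from -187), ATP5ME (chr4:674421-674450, minus strand, from -162), ATP5PB (chr1:111449229-111449258, plus strand, from -223) and ATP5MC1 (chr17:48892779-48892808, plus strand, from 5). The ETS match reads CTTCCGG on the gene's strand in UQCRH (chr1:46303640-46303669, plus strand, from -46) and COX8A (chr11:63974590-63974619, plus strand, from -18), which moved in opposite directions with MYC level. The NRF1 letters read CATGCGC in SDHB (chr1:17054214-17054243, minus strand, from -199) and COX6A1 (chr12:120437884-120437913, plus strand, from -217).
UQCR11: cggccgccagacCACGTGgccagaaagcac
ATP5ME: gcgcgtgcgcctCACGTGacgtcaccgccg
ATP5PB: ggcagcaaacccCACGTGgtgcacctctga
ATP5MC1: gaaggtccaggaCACGTGggtgggggaagc
UQCRH: gagtgtgccgcaCTTCCGGccagatcgccg
COX8A: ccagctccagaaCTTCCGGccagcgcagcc
SDHB: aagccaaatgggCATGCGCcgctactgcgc
COX6A1: ggagggcacacgCATGCGCacgaaggaaac
The median log2 change from high to medium MYC was -0.69 over the 4 genes with an E-box and -0.25 over the other promoters in the set. For the NRF1 letters the medians were -0.58 with and -0.25 without, for the ETS motif -0.32 and -0.29, and for the YY1 letters -0.34 and -0.31. These medians describe small groups of genes and were not tested, and a match is not evidence of binding.

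Library depth ran from 8755296 to 13858534 reads. MYC had a normalized count from 29693 to 34376 in high MYC controls and from 904 to 1022 in medium MYC controls, and was higher with the inhibitor at both levels (46843 to 48049 and 1328 to 1444). All 8 B cell markers examined were expressed, with a summed normalized count from 25582 to 25873 in high MYC controls, 20985 to 22003 with the inhibitor, 40792 to 41588 in medium MYC controls and 36126 to 37336 with the inhibitor. Of the T cell markers 2 of 5 reached a mean of 10 (CD3E and CD3G), of the myeloid markers 1 of 5 (LYZ) and of the epithelial and fibroblast markers 2 of 5 (COL1A1 and EPCAM). Their summed counts ran from 43.1 to 95.4, from 41.4 to 84.4 and from 65.9 to 238 over all libraries, and CD3D, CD8A, MPO, S100A8 and KRT19 had a median of 0. COL1A1 was higher and EPCAM lower at medium MYC (log2 changes of 4.39 and -2.23), and the part of these markers in the results below was not tested. Values below are normalized counts, the deposited unit, which are not scaled to gene length. Where 4 values are given they are those of replicates 1 to 4.

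The comparison of medium with high MYC among controls asked how the subunit genes follow the MYC level. Most were lower at medium MYC in all 4 complexes, with large falls in a c subunit of ATP synthase (ATP5MC1), the hinge protein of complex III (UQCRH) and the iron-sulfur subunit of succinate dehydrogenase (SDHB). COX8A, a small complex IV subunit, went the other way. Of the 43 genes that passed the low-value filter (a mean normalized count of 10 or more), 33 fell, 4 rose and 6 did not pass the test (limma on log2 of the value plus 1, adjusted p under 0.05, two-sided). This comparison calls 76.2% of all 13765 tested genes, 37.3% lower and 38.9% higher, so a call alone is common; among the subunit genes 76.7% were lower. The median log2 change was -0.32 over the subunit genes and 0.017 over all genes tested. In 30 genes every medium MYC control lay below every high MYC control, and in 4 every one lay above (33.6% and 35.6% of all genes tested, 69.2% in either direction). In bulk RNA, fewer cells of a type or state and less RNA per cell cannot be told apart. The normalized counts are scaled between libraries, and 0 rows were ERCC spike-ins. Falls and rises are therefore relative to the other RNAs of a library, and total RNA per cell was not measured.

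**Figure D1:**
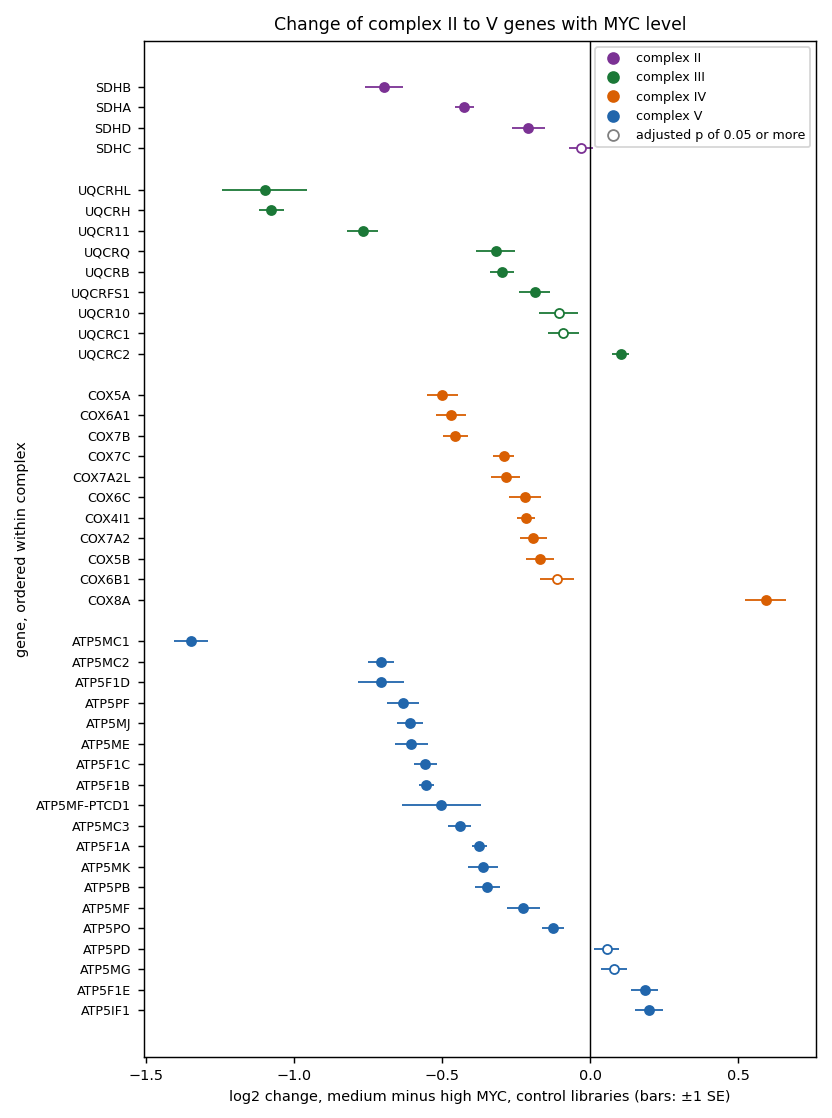
Log2 change from high to medium MYC among control libraries for the 43 tested genes, grouped by complex, with bars of 1 SE; filled points passed an adjusted p of 0.05. Most points lie left of 0, from ATP5MC1 at -1.35 to COX8A at 0.59.

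In complex II, 3 of the 4 genes fell and the median change was -0.32. SDHB, which carries the iron-sulfur clusters (chromosome 1, 17018722 to 17054170, minus strand, GRCh38), fell most. It read 796, 713, 735 and 711 in high MYC controls and 412, 449, 484 and 479 in medium MYC controls. The groups did not overlap, and the log2 change was -0.70 (SE 0.065, adjusted p = 2.51e-09 in limma), which means that it fell by 38.3%. SDHA, the flavoprotein that oxidises succinate, changed by -0.43 (SE 0.032, adjusted p = 7.85e-11 in limma). The membrane anchor SDHD, whose exons overlap those of TIMM8B, changed by -0.21 (SE 0.055, adjusted p = 0.00179 in limma). SDHC, the other membrane anchor (chromosome 1, 161314257 to 161375340, plus strand), did not pass the test. Its values were 905, 967, 1019.8 and 949 in high MYC controls and 985, 946, 894 and 934 in medium MYC controls, the groups overlapped, and the log2 change was -0.031 (SE 0.04, adjusted p = 0.493 in limma). After a correction for GC content or for transcript length, both added after seeing the data, SDHC did pass as lower, with changes from -0.15 to -0.10.

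In complex III, 6 of the 9 genes fell, 1 rose and 2 did not pass the test, with a median of -0.30. Within the symbol rule the largest falls were in small subunits, and the core subunits changed by less. The small subunit UQCR10 also changed little (-0.11), and the core subunit CYC1, outside the rule, changed by -0.39. UQCRH, the acidic hinge protein that contacts cytochrome c1 (chromosome 1, 46303631 to 46316776, plus strand), had normalized counts of 1377, 1385, 1431 and 1338 in high MYC controls and 647, 654, 666 and 651 in medium MYC controls. Its medium MYC controls lay within a narrow range, far below all high MYC controls, and the log2 change was -1.08 (SE 0.042, adjusted p = 8.49e-16 in limma), which means that it fell by 52.6%. UQCRHL is a near-identical intronless copy of UQCRH on the same chromosome (chromosome 1, 15807169 to 15809348, minus strand) and read 76.1, 70.8, 60.7 and 81.6 in high MYC controls and 31.3, 42.0, 28.9 and 31.2 in medium MYC controls. Its level was 5.24% ± 0.78 of that of UQCRH in high MYC controls and 5.10% ± 0.91 at medium MYC (SD, n = 4 each), so its change of -1.10 (SE 0.14, adjusted p = 5.47e-07 in limma) is uncertain as a separate result, since reads of the pair may be split between them.

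Among the other small subunits, UQCR11 changed by -0.77 (SE 0.052, adjusted p = 1.29e-11 in limma), UQCRQ by -0.32 (adjusted p = 0.000179) and the ubiquinone-binding protein UQCRB by -0.30 (adjusted p = 1.17e-06). UQCRFS1, the Rieske iron-sulfur protein, fell by less, with -0.19 (SE 0.052, adjusted p = 0.0028 in limma). The core proteins UQCRC2 and UQCRC1 changed little, and only UQCRC2 passed the main test. UQCRC2 (chromosome 16, 21952660 to 21983660, plus strand) read 1904, 2004, 1910.5 and 1940.2 in high MYC controls and 2052, 2101, 2107 and 2073 in medium MYC controls. Every medium MYC control was above every high MYC control, but by little, with a log2 change of 0.10 (SE 0.029, adjusted p = 0.00292 in limma). This call depended on the processing: after a GC correction, with or without a replicate block, the change was -0.013 (adjusted p up to 0.694), and after a transcript length correction the call was also lost. UQCRC1 (chromosome 3, 48599002 to 48610976, minus strand) read 1237, 1160.1, 1099 and 1115 in high MYC controls and 983, 1086, 1195 and 1072 in medium MYC controls, overlapped between the groups and changed by -0.091 (SE 0.053, adjusted p = 0.126 in limma). UQCR10, a small subunit of the membrane part (chromosome 22, 29767369 to 29770413, plus strand), read 653, 617, 654 and 581 in high MYC controls and 566, 511, 671 and 586 in medium MYC controls and changed by -0.11 (SE 0.065, adjusted p = 0.139 in limma). Without medium MYC control replicate 3, which is the highest of its group for both genes, UQCRC1 and UQCR10 also passed as lower, and they did so after the GC and length corrections.

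In complex IV, 9 of the 11 tested genes fell, 1 rose and 1 did not pass the test, with a median of -0.22. COX8A was the largest rise among all the subunit genes. It encodes the ubiquitous form of the smallest nuclear subunit (chromosome 11, 63974607 to 63976543, plus strand) and read 624, 641, 593 and 535 in high MYC controls and 817, 911, 1033 and 857 in medium MYC controls. All 4 medium MYC controls were above all 4 high MYC controls. The log2 change was 0.59 (SE 0.068, adjusted p = 7.91e-08 in limma), a rise of 50.8%, and it passed under all 24 alternative settings of the processing that were tried. Its exons share 175 bases with AP000721.1 on the same strand, whose reads cannot be told from its own there.

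The largest fall in complex IV was that of COX5A (chromosome 15, 74919791 to 74938168, minus strand), a matrix-side subunit, at 1054, 1092, 1018 and 987 in high MYC controls and 697, 758, 791 and 692 in medium MYC controls. The groups did not overlap, and the log2 change was -0.50 (SE 0.051, adjusted p = 1.25e-08 in limma). COX6A1, the ubiquitous isoform of subunit VIa (chromosome 12, 120438090 to 120440742, plus strand), read 1458, 1407, 1281 and 1277 in high MYC controls and 941, 942, 1055 and 971 in medium MYC controls and changed by -0.47 (SE 0.051, adjusted p = 2.55e-08 in limma). COX7B, a small membrane subunit needed for assembly (chromosome X, 77899438 to 77907373, plus strand), read 993, 1071, 1009 and 951 in high MYC controls and 682, 747, 753 and 751 in medium MYC controls and changed by -0.46 (SE 0.042, adjusted p = 2.5e-09 in limma). In both genes every medium MYC control lay below every high MYC control. COX4I1, the ubiquitous isoform of the largest nuclear subunit (chromosome 16, 85798633 to 85807044, plus strand), read 2473, 2563, 2383 and 2398 in high MYC controls and 2058, 2100.1, 2156 and 2134 in medium MYC controls and had a log2 change of -0.22 (SE 0.03, adjusted p = 1.2e-06 in limma).

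COX7A2, the ubiquitous isoform of subunit VIIa (chromosome 6, 75237675 to 75250323, minus strand), read 694, 691, 711 and 702 in high MYC controls and 621, 649.8, 583 and 597 in medium MYC controls and changed by -0.19 (SE 0.045, adjusted p = 0.000547 in limma). COX7A2L, related to it and known as a supercomplex factor (chromosome 2, 42333546 to 42425088, minus strand), read 650.0, 648, 671 and 609 in high MYC controls and 506, 527, 561 and 521 in medium MYC controls and changed by -0.29 (SE 0.048, adjusted p = 1.4e-05 in limma). Both had groups that did not overlap. The remaining subunits COX5B, COX6C and COX7C also fell, by log2 changes of -0.17, -0.22 and -0.29. COX6B1, which faces the intermembrane space (chromosome 19, 35648223 to 35658861, plus strand), read 1132, 1188, 976 and 999 in high MYC controls and 905, 973, 1092 and 1001 in medium MYC controls. The groups overlapped and the change of -0.11 (SE 0.058, adjusted p = 0.086 in limma) did not pass, although it passed as lower with edgeR, after the GC correction, and without any of high MYC control replicates 3 and 4 or medium MYC control replicate 3 (adjusted p from 6.36e-07 to 0.0492 where it passed).

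The tissue-specific isoforms of complex IV were at or near 0. COX6A2 and COX7B2 had no read in any of the 16 libraries, and a count of 0 allows up to 3 reads per library. COX4I2, the lung isoform, COX6B2, COX7A1, the heart and muscle isoform, and COX8C, the testis isoform, each had at most 1 read in any library. These 6 genes did not enter the test. The families COX4I, COX6A, COX6B, COX7A, COX7B and COX8 were thus detected through COX4I1, COX6A1, COX6B1, COX7A2, COX7A2L, COX7B and COX8A. In complex V, ATP5MGL was left out for the same reason, with a mean of 3.93 and at most 10 reads.

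Complex V showed the deepest fall of the 4 complexes at the median, -0.44, with 15 of the 19 tested genes lower, 2 higher and 2 not passing. The catalytic F1 head was lower in 4 of its 5 subunits. The catalytic β subunit ATP5F1B changed by -0.55 (SE 0.025, adjusted p = 1.21e-14 in limma) and the α subunit ATP5F1A by -0.37 (SE 0.026, adjusted p = 1.42e-11 in limma). The rotor subunit γ, ATP5F1C (chromosome 10, 7788129 to 7807815, plus strand), read 1323, 1362, 1378 and 1312 in high MYC controls and 898, 907, 924 and 923 in medium MYC controls. Its groups did not overlap, and it changed by -0.56 (SE 0.038, adjusted p = 1.19e-11 in limma). The δ subunit ATP5F1D changed by -0.71 (SE 0.078, adjusted p = 3.9e-08 in limma). The ε subunit ATP5F1E was higher instead, by 0.18 (SE 0.045, adjusted p = 0.000907 in limma), but its exons overlap 1188 bases of TUBB1 on the other strand, and after the length correction the change was 0.023 (adjusted p = 0.648).

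The c-ring turns with the rotor and is made of identical c subunits, which 3 genes with the same mature protein encode. All 3 fell, by unequal amounts. ATP5MC1 (chromosome 17, 48892765 to 48895871, plus strand) read 749, 763, 698 and 722 in high MYC controls and 274, 264, 314 and 299 in medium MYC controls, a gap far wider than the spread within either group. The log2 change was -1.35 (SE 0.057, adjusted p = 3.09e-15 in limma), which means that it fell by 60.7%, the largest among the genes examined. ATP5MC2 (chromosome 12, 53632726 to 53677408, minus strand) read 1591, 1585, 1446 and 1586 in high MYC controls and 893, 938, 1019 and 954 in medium MYC controls and changed by -0.71 (SE 0.043, adjusted p = 1.94e-12 in limma). ATP5MC3 (chromosome 2, 175176258 to 175184607, minus strand) read 1655, 1744, 1747 and 1693 in high MYC controls and 1261, 1253, 1301 and 1223 in medium MYC controls and changed by -0.44 (SE 0.039, adjusted p = 1.16e-09 in limma). Neither of these overlapped between groups.

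To compare levels between the 3 genes, normalized counts were divided by the length of the principal transcript (606, 878 and 842 bases). In controls, ATP5MC1 made up 24.1% ± 0.51 of their summed per-kilobase level at high MYC and 15.5% ± 0.79 at medium MYC (SD, n = 4 each), and the ranges did not overlap. ATP5MC2 stood at 35.3% ± 1.09 and 35.5% ± 0.80 (SD, n = 4 each). ATP5MC3 took 40.6% ± 1.43 and 49.0% ± 1.30 (SD, n = 4 each), a higher share without overlap, although its own normalized count fell. The genes ATP5MC1 and ATP5MC2 have 7 and 3 pseudogenes named after them, and how reads were shared with these is not stated.

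**Figure D2:**
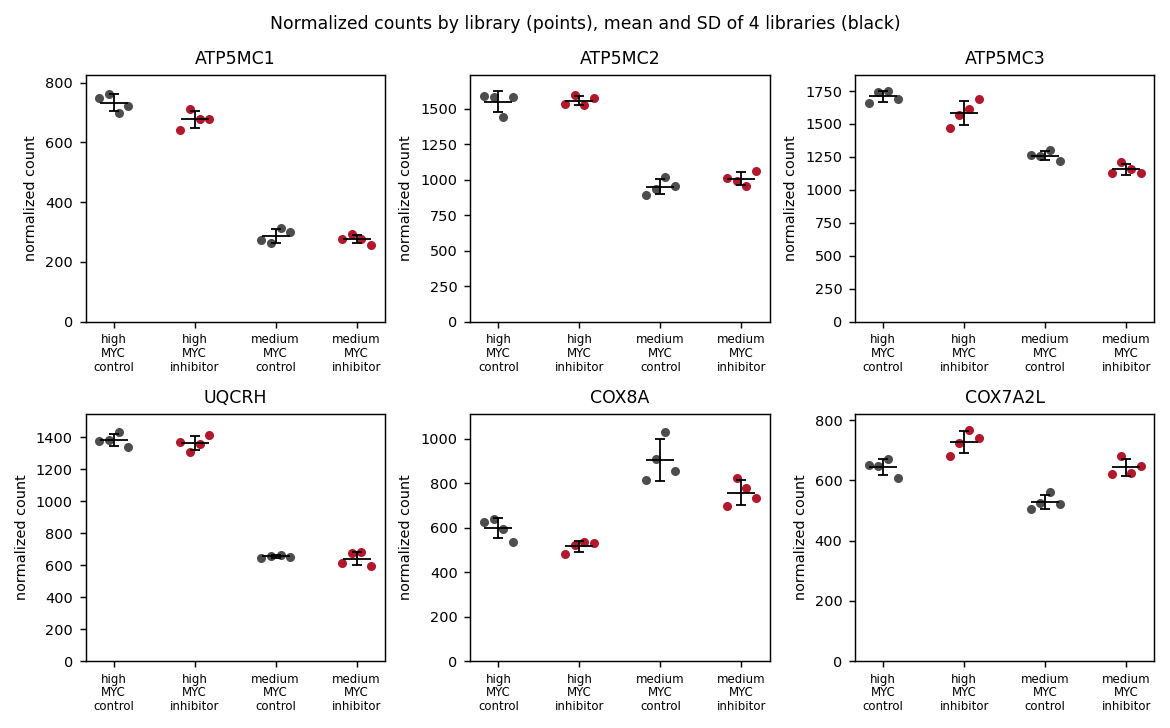
Normalized counts of 6 genes in each of the 16 libraries (points in order of replicate, grey for controls, red for inhibitor), with the mean and SD of 4 libraries in black; each panel has its own axis from 0. ATP5MC1 and UQCRH fall most from high to medium MYC, COX8A is higher at medium MYC, and COX7A2L is higher with the inhibitor at both levels.

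The peripheral stalk, which holds the head in place, was lower in 3 of 4 genes. ATP5PF (subunit F6) changed by -0.63, ATP5PB (subunit b) by -0.35 and ATP5PO (chromosome 21, 33903453 to 33915980, minus strand), the OSCP subunit, by -0.13 (SE 0.037, adjusted p = 0.00456 in limma). The values of ATP5PO were 1185, 1119, 1164 and 1132 in high MYC controls and 1023, 1054, 1089.6 and 1049 in medium MYC controls, a small shift without overlap. Subunit d, ATP5PD (chromosome 17, 75038863 to 75046985, minus strand), read 577, 627, 578 and 587 in high MYC controls and 601, 628, 607 and 624 in medium MYC controls. Its groups overlapped and its change of 0.055 (SE 0.042, adjusted p = 0.242 in limma) did not pass. Of the other membrane subunits ATP5ME (-0.60), ATP5MJ (-0.61), ATP5MK (-0.36) and ATP5MF (-0.23) fell, and ATP5MG had a log2 change of 0.08 (adjusted p = 0.102), which passed as higher only without medium MYC control replicate 1. The exons of ATP5ME share 579 of 940 bases with MYL5 on the other strand. Those of ATP5MK, ATP5MG, ATP5PB and ATP5PF also overlap other genes. The readthrough gene ATP5MF-PTCD1 shares exons with ATP5MF and PTCD1 and fell by 0.50, which cannot be told apart from changes of those genes.

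ATP5IF1, the inhibitor that stops ATP synthase from running backwards (chromosome 1, 28236109 to 28246906, plus strand), rose while most subunits fell. It read 542, 541, 498 and 551 in high MYC controls and 604, 609.6, 626 and 606 in medium MYC controls. Every medium MYC control was above every high MYC control, and the log2 change was 0.20 (SE 0.047, adjusted p = 0.000729 in limma). After the GC correction it was 0.055 (adjusted p = 0.271).

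Summed over its genes, each complex took a smaller share of the library at medium MYC. Complex II took 0.0402% ± 0.0011 of reads in high MYC controls and 0.0321% ± 0.00091 in medium MYC controls, complex III 0.0809% ± 0.00054 and 0.0674% ± 0.0011, complex IV 0.115% ± 0.0028 and 0.0979% ± 0.0017, and complex V 0.290% ± 0.0043 and 0.221% ± 0.0013 (SD, n = 4 each). In none of the 4 complexes did the ranges of the control groups overlap. All 50 genes together took 0.525% ± 0.0047 and 0.418% ± 0.0019 (SD, n = 4 each). With the inhibitor the totals were 0.518% ± 0.0043 at high MYC and 0.415% ± 0.0036 at medium MYC (SD, n = 4 each). For complex V at medium MYC the share ran from 0.2146% to 0.2189% with the inhibitor, just below the controls (0.2192% to 0.2223%). In the other complexes, and in complex V at high MYC, the ranges of control and inhibitor overlapped. Reads of mitochondrial DNA genes also took a smaller share, 4.44% ± 0.23 against 3.41% ± 0.27 (SD, n = 4 each), while the 10 genes with most reads took 10.2% ± 0.70 against 13.3% ± 0.76 (SD, n = 4 each). The part of these few abundant genes in the lower shares was not tested.

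**Figure D3:**
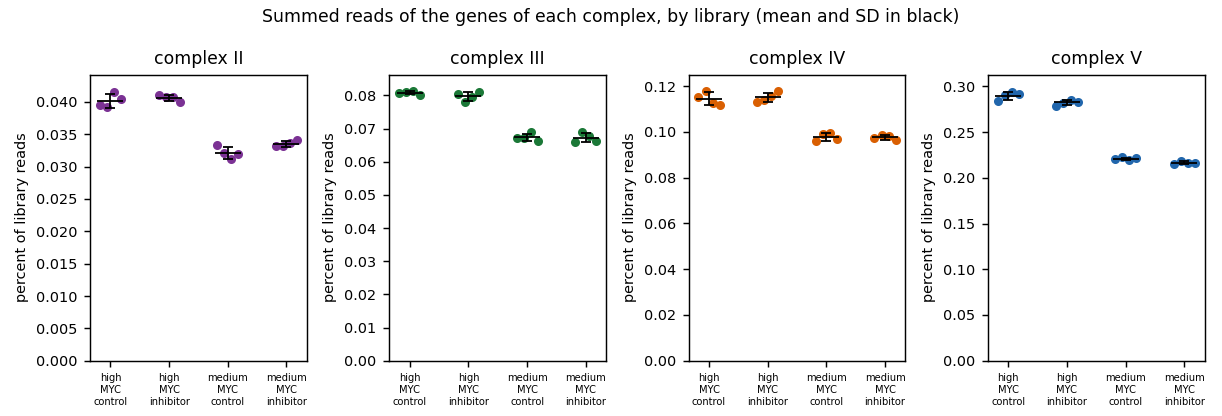
Percent of each library's reads that fell on the genes of each complex, by group, with points for the 16 libraries and the mean and SD of 4 in black; each axis starts at 0. The shares step down from high to medium MYC in all 4 complexes and differ little between control and inhibitor. Only for complex V at medium MYC do the control and inhibitor ranges not overlap.

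Among other genes of the pathway, the median change was below 0 in each of the lists examined. The 6 subunits of complexes III to V encoded by mitochondrial DNA all fell (median -0.39), among them MT-ATP8 with -0.69 (SE 0.074, adjusted p = 2.26e-08 in limma). Both cytochromes fell: CYCS, the soluble carrier between complexes III and IV, changed by -0.97 and CYC1, a complex III subunit outside the symbol rule, by -0.39. For complexes III and IV the assembly factors had a lower median than the subunits. Those of complex III were lower in 5 of 6 (median -1.10), with LYRM7 at -1.62 and BCS1L at -1.58, which chaperone and insert the Rieske protein. Those of complex IV were lower in 18 of 25 and higher in 3 (median -0.40), with COA7 at -2.16 (SE 0.061, adjusted p = 2.6e-18 in limma) and the copper chaperone SCO1 at -1.38. Complex II assembly factors were lower in 2 of 4 and higher in 1 (median -0.27, SDHAF3 at -1.39), and complex V factors lower in 4 of 6 (median -0.37, with TMEM70, which helps build the membrane part, at -0.996).

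Supercomplex and cristae factors were lower in 8 of 12 and higher in 1 (median -0.43), with MICOS10 of the cristae junction complex at -0.92. Of the nuclear regulators, 8 of 13 tested were lower and 2 higher (median -0.26). TFB2M and POLRMT, which start transcription of mitochondrial DNA, changed by -1.65 and -1.45. Complex I nuclear subunits were lower in 21 of 37 and higher in 6 (median -0.27), and tricarboxylic acid cycle enzymes lower in 9 of 14 and higher in 1 (median -0.20), with malate dehydrogenase MDH2 at -1.08 and citrate synthase CS at -0.70. The lists are described by these counts and medians, beside 37.3% lower and a median of 0.017 over all genes, and were not tested as sets.

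The second question was how the subunit genes responded to IMP1088 at each MYC level. The changes were small, and the largest was that of COX7A2L at medium MYC, 0.28 on the log2 scale. At high MYC 1 of 43 rose and 8 fell, so 20.9% were called, against 26.8% of all tested genes (10.5% higher, 16.3% lower). At medium MYC 1 rose and 10 fell, 25.6% called against 26.3% of all (11.7% higher, 14.6% lower). Counted in either direction, these shares lie near the background. Lower calls alone were 18.6% of the subunit genes at high MYC and 23.3% at medium MYC, beside 16.3% and 14.6% of all, with 1 gene higher at each level. The median log2 change over the subunit genes was -0.044 at high and -0.053 at medium MYC, beside -0.020 and -0.0062 over all genes. The split between higher and lower depended on the scaling: with quantile normalization 2 rose and 3 fell at high MYC and 3 and 3 at medium MYC, and with equal library totals it was 2 and 5, and 2 and 4. In 5 genes at high MYC and 7 at medium MYC every treated library lay below every control (15.8% and 15.4% of all genes tested), and in 1 and 2 every one lay above (10.9% and 12.4%). In either direction the groups did not overlap in 26.7% and 27.9% of all genes tested.

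By complex, no complex II gene was called at either level, and complex III had 1 call at each, UQCR10 lower at high MYC and UQCRC1 lower at medium MYC. Complex IV had 1 gene higher and 2 lower at high MYC, and 1 higher and 4 lower at medium MYC. Complex V had 5 lower at each level. Called at both levels were COX7A2L, COX7B, COX8A, ATP5F1C, ATP5MC3 and ATP5PD, each in the same direction. These 6 are 66.7% of the calls at high MYC and 54.5% of those at medium MYC, beside 50.7% and 51.7% over all tested genes. The comparisons at high and at medium MYC use different control libraries.

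**Figure D4:**
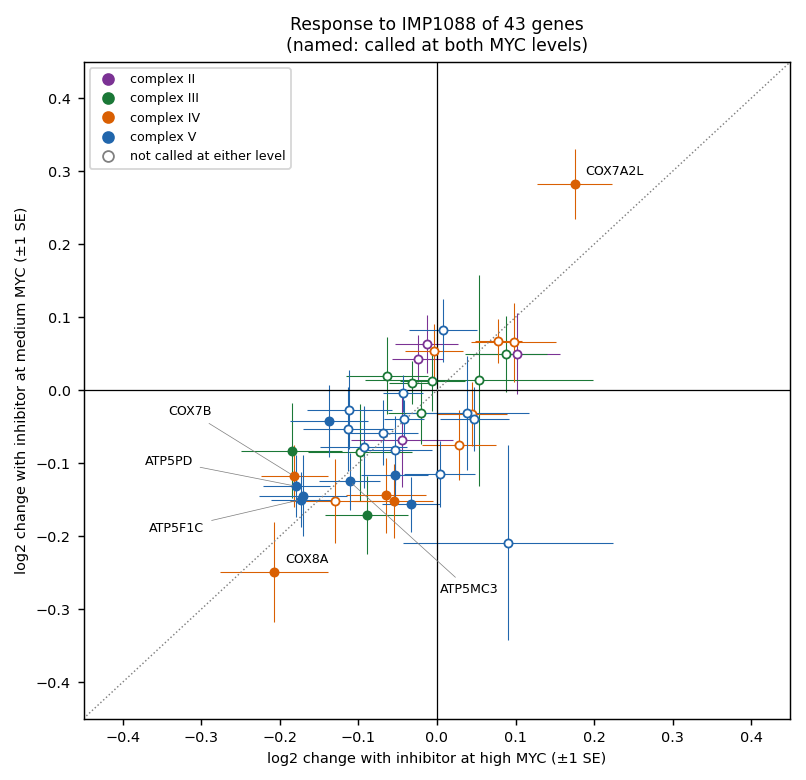
Log2 change with IMP1088 at high MYC (x) and at medium MYC (y) for the 43 tested genes, with bars of 1 SE and a dotted line of equal change; filled points were called at 1 level or both, and names mark the 6 called at both. COX7A2L lies farthest to the upper right, and the points of the other named genes lie at the lower left.

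COX7A2L was the only gene of the set that limma called higher, and it was called at both levels. Beside the control values given above, it read 681, 723, 769 and 740.1 with the inhibitor at high MYC and 619.8, 681, 625 and 646 with it at medium MYC, and at each MYC level every treated library was above every control. Its log2 change was 0.18 (SE 0.048, adjusted p = 0.00868 in limma) at high MYC and 0.28 (SE 0.048, adjusted p = 0.000108 in limma) at medium MYC, rises of 12.9% and 21.6%. Both calls held in all 25 alternatives. COX4I1 read 2617, 2493, 2615 and 2633 with the inhibitor at high MYC and 2176, 2250.0, 2246 and 2178 with it at medium MYC, and its changes of 0.078 and 0.067 did not pass (limma adjusted p = 0.0604 and 0.11). At medium MYC every treated library of COX4I1 was above every control, and at high MYC the groups overlapped. COX4I1 passed as higher in 10 of 25 alternatives at high MYC, among them without replicate 2 of the controls or of the treated libraries, and in 4 at medium MYC. ATP5MC2 read 1535, 1595, 1528 and 1579 with the inhibitor at high MYC and 1012, 994, 954 and 1065 with it at medium MYC and passed as higher at medium MYC in 3 alternatives.

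COX8A, which was higher at medium MYC, fell with the inhibitor at both levels. It read 482, 522, 534 and 531 with the inhibitor at high MYC and 698, 826, 778 and 733 with it at medium MYC, with log2 changes of -0.21 (SE 0.068, adjusted p = 0.0286 in limma) and -0.25 (SE 0.068, adjusted p = 0.00893 in limma). At high MYC the groups did not overlap, yet the call was lost in 7 of 25 alternatives. Of these, 3 left out high MYC control replicate 1 or 2 or inhibitor replicate 1 (adjusted p from 0.0762 to 0.0977). At medium MYC the groups overlapped, and the call held in all 25. The comparison of MYC levels and that of the inhibitor share control libraries, so their values are only set side by side. COX7B read 861, 873, 899.7 and 912 with the inhibitor at high MYC and 699, 666, 674 and 662 with it at medium MYC, and fell by 0.18 (SE 0.042, adjusted p = 0.00271 in limma) at high MYC, a call that held in all 25 alternatives. At medium MYC its change was -0.12 (SE 0.042, adjusted p = 0.0446 in limma), lost in 17 of 25, among them without any 1 of replicates 2 to 4 of the medium MYC controls or of the treated libraries (adjusted p up to 0.110).

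In complex V the γ subunit ATP5F1C was lower with the inhibitor at both MYC levels. Its normalized counts were 1184, 1191, 1220.0 and 1172 with the inhibitor at high MYC and 890.1, 828, 795 and 782 with it at medium MYC, below all controls of the same MYC level in each case. The log2 changes were -0.17 (SE 0.038, adjusted p = 0.00153 in limma) and -0.15 (SE 0.038, adjusted p = 0.00479 in limma), and both held in all 25 alternatives. ATP5PD read 525, 507, 555 and 505 with the inhibitor at high MYC and 576, 547, 557 and 566 with it at medium MYC and changed by -0.18 (SE 0.042, adjusted p = 0.00306 in limma) and -0.13 (SE 0.042, adjusted p = 0.0251 in limma); its exons overlap those of KCTD2 on the other strand. The first call held throughout, and the second was lost in 8 alternatives, among them without medium MYC control replicate 2 or 4 or inhibitor replicate 2 or 3 (adjusted p from 0.0543 to 0.071). ATP5PO, of the same stalk, read 1099, 1171, 1163 and 1064 with the inhibitor at high MYC and 937, 974, 958 and 914 with it at medium MYC. Its exons overlap AP000311.1 and LINC00649. Its treated libraries lay below all controls at medium MYC, with -0.16 (SE 0.037, adjusted p = 0.00314 in limma), a call that held in all 25 alternatives, while at high MYC they overlapped the controls and the change was -0.033 (SE 0.037, adjusted p = 0.57 in limma).

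The c subunit gene ATP5MC3 read 1470.0, 1565, 1617 and 1686 with the inhibitor at high MYC and 1125, 1211, 1155 and 1129 with it at medium MYC and changed by -0.11 (SE 0.039, adjusted p = 0.0395 in limma) and -0.13 (SE 0.039, adjusted p = 0.0212 in limma). The first was lost in 14 of 25 alternatives, 5 of which left out 1 library (high MYC control replicate 2, 3 or 4, inhibitor replicate 1 or 2, adjusted p from 0.0581 to 0.168). The second was lost in 5, of which 3 left out medium MYC control replicate 3 or inhibitor replicate 1 or 4 (adjusted p from 0.0591 to 0.0623). ATP5MC1 read 642, 711, 678 and 678 with the inhibitor at high MYC and 278, 293, 278 and 258 with it at medium MYC, with changes of -0.11 and -0.053 that did not pass (limma adjusted p = 0.154 and 0.544). Its share of the per-kilobase c subunit level was 23.4% ± 0.60 with the inhibitor at high MYC and 15.4% ± 0.72 at medium MYC (SD, n = 4 each).

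The other calls were at 1 level only and most were near the threshold, and the direct test of a difference between MYC levels called none of them. At high MYC the small complex III subunit UQCR10 read 554, 516, 549 and 584 with the inhibitor, overlapping its controls, and changed by -0.19 (SE 0.065, adjusted p = 0.0379 in limma). This call was lost in 11 of 25 alternatives. Among them were those without any 1 of high MYC control replicates 1 to 3 or inhibitor replicates 1 to 3 (adjusted p up to 0.120). The membrane subunits ATP5ME and ATP5MK changed by -0.17 and -0.14. ATP5ME was lost without any 1 of high MYC control replicates 1, 2 and 4 or inhibitor replicates 1 and 4 (up to 0.0945), and ATP5MK without any 1 of control replicates 2 and 3 or inhibitor replicates 1 and 4 (up to 0.128). Counting all alternatives, ATP5ME lost its call in 10 of 25 and ATP5MK in 15 of 25. At medium MYC UQCR10 read 566, 568, 524 and 536 with the inhibitor and was not called.

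At medium MYC the complex III core protein UQCRC1 read 885, 983, 1031 and 948 with the inhibitor, overlapping its controls, and changed by -0.17 (SE 0.053, adjusted p = 0.0206 in limma). The call ended without medium MYC control replicate 3 or inhibitor replicate 1 or 4 (adjusted p up to 0.087). COX5A read 641, 669.5, 705 and 640.3 and changed by -0.14 (SE 0.051, adjusted p = 0.0426 in limma), a call that ended without control replicate 2 or 3 or inhibitor replicate 1, 2 or 4 (up to 0.145). COX6A1 read 923, 816, 889 and 889, below all its controls, and changed by -0.15 (SE 0.051, adjusted p = 0.0299 in limma), which ended without control replicate 3 or 4 or inhibitor replicate 2 (up to 0.117). The stalk subunit ATP5PB changed by -0.12, and its call ended without any 1 of control replicates 1, 2 and 4 or inhibitor replicates 2, 3 and 4 (up to 0.140). Counting all 25 alternatives, UQCRC1 lost its call in 6, COX5A in 13, COX6A1 in 8 and ATP5PB in 18. For COX5A and ATP5PB these included edgeR and DESeq2. At high MYC with the inhibitor, UQCRC1 read 1079, 1055, 1107 and 1089, COX5A 926, 964, 1046 and 1033 and COX6A1 1261, 1317, 1257 and 1380.4, and none of the 3 was called there.

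UQCRH, UQCRHL and SDHB, which fell with MYC level, and ATP5IF1, which rose, were not called with IMP1088. UQCRH read 1372, 1310.0, 1357 and 1416 with the inhibitor at high MYC and 612, 675, 682 and 597 with it at medium MYC. Its changes were -0.02 and -0.032 (limma adjusted p = 0.778 and 0.641), and its treated libraries overlapped the controls at both levels. UQCRHL read 73.1, 66.6, 78.5 and 81.1 with the inhibitor at high MYC and 32.6, 32.8, 29.2 and 39.3 with it at medium MYC, again about the same percentage of UQCRH, 5.48% ± 0.34 and 5.27% ± 0.98 (SD, n = 4 each). SDHB, the iron-sulfur subunit, read 684, 707, 736 and 738 with the inhibitor at high MYC and 376, 481, 439 and 447 with it at medium MYC, with changes of -0.044 and -0.068 (limma adjusted p = 0.669 and 0.486). ATP5IF1 read 477, 524, 525 and 528 with the inhibitor at high MYC and 562, 585, 550.4 and 614 with it at medium MYC, and its changes of -0.054 and -0.082 did not pass (limma adjusted p = 0.447 and 0.222).

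Of the remaining genes followed in every library, none was called with the inhibitor. The membrane anchor SDHC read 969, 962, 958 and 914 with the inhibitor at high MYC and 993, 955, 977 and 1000.3 with it at medium MYC. The core protein UQCRC2 read 1851, 1938, 1911 and 1889 with the inhibitor at high MYC and 2159, 2109.9, 2109 and 2018 with it at medium MYC. The subunit VIIa isoform COX7A2 read 744, 691, 718 and 733 with the inhibitor at high MYC and 578, 619, 632 and 567 with it at medium MYC. For all 3 the treated and control libraries overlapped at both MYC levels. COX6B1, on the intermembrane side, read 942, 1017, 967 and 988 with the inhibitor at high MYC and 884, 905, 868 and 912 with it at medium MYC. Its change at medium MYC, -0.15 (SE 0.058, adjusted p = 0.0581 in limma), was close to the threshold and passed as lower in 6 alternatives, 1 of them without medium MYC control replicate 1. At high MYC it passed as lower without high MYC control replicate 3 (log2 change -0.17, adjusted p = 0.0307 in limma).

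The neighbouring lists are given beside the shares of all tested genes called with the inhibitor, 16.3% lower and 10.5% higher at high MYC and 14.6% lower and 11.7% higher at medium MYC. Complex I nuclear subunits had 5 of 37 lower and 1 higher at high MYC, and 7 lower at medium MYC, so their lower calls were near the background. NDUFA13 changed most among those named, by -0.55 (SE 0.052, adjusted p = 5.27e-08 in limma) and -0.69 (SE 0.052, adjusted p = 1.45e-09 in limma), more than any complex II to V gene, followed by NDUFB5 (-0.28 and -0.37). Tricarboxylic acid cycle enzymes had 4 of 14 lower at high and 7 lower at medium MYC, above the background of 16.3% and 14.6% lower in both cases; the list was not tested as a set. They included mitochondrial isocitrate dehydrogenase IDH2 at high MYC (-0.48), the isocitrate dehydrogenase subunit IDH3A at medium MYC (-0.29) and oxoglutarate dehydrogenase OGDH at both (-0.28 and -0.29). Of complex IV assembly factors 3 of 25 were higher and 1 lower at high MYC, and 4 higher and 1 lower at medium MYC. COA7 rose by 0.20 and 0.28, and COX20 changed by -0.41 at medium MYC.

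In the remaining lists few genes were called, beside the same shares of all tested genes (16.3% lower and 10.5% higher at high MYC, 14.6% and 11.7% at medium MYC). Of the mitochondrially encoded subunits, MT-CO1 was higher at high MYC (0.12), and none of the 6 was called at medium MYC. Complex II and complex V assembly factors and the cytochromes had no call at either level. Complex III factors had 1 lower at medium MYC (UQCC3, -0.36). Supercomplex and cristae factors had 1 of 12 lower at high MYC (CHCHD3, -0.13) and 1 higher and 1 lower at medium MYC (APOOL, 0.19, and IMMT, -0.11). Of the 13 regulators tested 1 was higher and 2 lower at high MYC, with GABPB2 at -0.34 and TFB1M at -0.28, a share of lower calls near the background, and 1 was lower at medium MYC (POLRMT, -0.30).

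Whether the response to the inhibitor depended on MYC level was tested directly, as the response at high minus that at medium MYC. No gene of complexes II to V passed limma (0 of 43; 1 at an unadjusted p under 0.05, and 0 with edgeR and with DESeq2), against 8.63% of all tested genes (3.31% higher, 5.33% lower). The smallest adjusted p was that of ATP5PO, with a difference of 0.12 (SE 0.053, adjusted p = 0.171 in limma). For COX7A2L the difference was -0.11 (SE 0.067, adjusted p = 0.392 in limma), for COX8A 0.042 (SE 0.097, adjusted p = 0.862 in limma) and for ATP5F1C -0.023 (SE 0.053, adjusted p = 0.863 in limma). Each of the last 3 differences lay within 2 SE of 0, which does not show that the responses were alike. The other lists of the pathway had no call either.

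Shared reads and sequence composition were examined last. Of the 50 genes, 28 have pseudogenes named after them, and the exons of 25 overlap those of another gene in GENCODE 29; whether counting used strand is not given in the sources used here. Among the 20 tested genes without an overlap, 15 were lower and 2 higher at medium MYC (median -0.44), and among the 15 without a named pseudogene 11 were lower and 2 higher (median -0.44). Without UQCRHL and ATP5MF-PTCD1 it was 31 lower and 4 higher of 41 (median -0.30). The genes examined had a median GC content of 47.0% and a median transcript length of 626 bases, against 48.9% and 1029 over all tested genes. A GC correction moved the median of all genes from 0.017 to -0.094 and that of the subunit genes to -0.45, and a length correction moved them to -0.10 and -0.42. Relative to all genes the subunit median was -0.34 uncorrected, -0.36 after the GC correction and -0.32 after the length correction.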

How the data were processed

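The authors deposited 1 table of normalized counts per gene and library, a non-negative signal. The submitters' processing notes name STAR 2.5.2a, RSEM 1.2.31, DESeq2 1.16.1 and GRCh38, with no role or order, and the annotation and use of strand are not given in the sources used here. All values (100%) were whole multiples of 1 step per library within 0.0001, so reads were recovered. Symbols matched 56948 of 58051 identifiers, and 57447 were found in GENCODE 29, the source of positions and gene types on GRCh38.

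The main test was limma 3.58.1 (R 4.3.3) on log2(value + 1), so that folds of low genes are understated, for 13765 genes (mean of 10 or more). All 16 libraries entered 1 fit of 4 group means, with a mean trend and Benjamini-Hochberg adjustment over all genes tested; SE is limma's. It was tested on simulated data. On the recovered reads, edgeR 4.0.16 called 10556 genes for MYC level, 3703 and 3858 for the inhibitor at high and medium MYC and 1219 for the difference in response, and DESeq2 1.42.0 called 10203, 3165, 3340 and 1019. Counting limits (3 reads for a count of 0) cover counting error only, as PCR copies were not marked.

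The genes and lists were chosen with earlier results of these data known. Values in every library are given for the genes with the highest, lowest and smallest change with MYC level in each complex (mean of at least 50), the called gene with the smallest p per complex and inhibitor comparison, the isoform families, UQCRH, UQCRHL and ATP5IF1. From the other lists, up to 2 called genes with the largest change in size per list and comparison are named, so these are the extremes of their lists. ATP5ME, ATP5MK and others outside these rules were named after their values were seen. Alternatives covered scaling, pseudocounts (0.1 and 10), filters (none and a mean of 100), the variance model, replicate blocks, tools and leaving out each library. GC and transcript length corrections (loess, span 0.3) were added after seeing the data.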

Additional observations from a re-analysis of the deposited data

Results flagged for a closer look

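Each of the 43 tested genes was examined in each of the 4 groups for a library far from the other 3, by a gap to its nearest neighbour that, as a share of the group's range, passed Dixon's 95% critical value. Of 172 such groups 12 passed, where chance alone would give about 8.6. ATP5MF-PTCD1 had a low value in high MYC control replicate 3 (103, others 141 to 146) and a high one in medium MYC control replicate 4 (119, others 83.0 to 88.7). ATP5MC2 was low in the former library (1446, others 1585 to 1591), and ATP5MJ was high in the latter (519, others 482 to 487). In medium MYC control replicate 1, COX7B (682, others 747 to 753) and ATP5MG (1266, others 1381 to 1386) were low. ATP5F1D was high in medium MYC control replicate 3 (412, others 326 to 338), and COX7C was low in high MYC control replicate 2 (1500.4, others 1537 to 1539). Among treated libraries at medium MYC, SDHA (1349, others 1292 to 1301) and ATP5PB (1628, others 1444 to 1472) were high in replicate 1. At high MYC with the inhibitor, ATP5IF1 was low in replicate 1 (477, others 524 to 528) and COX4I1 in replicate 2 (2493, others 2615 to 2633).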

How the results depend on the processing

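For MYC level, 34 of the 37 calls held under all alternatives run, and the exceptions were ATP5F1E, ATP5IF1 and UQCRC2. UQCRC2 had a change of -0.013 after the GC correction, alone or with the replicate block (adjusted p up to 0.694); the cause was not tested here or for the counts that follow. Genes called higher went from 4 to 2 with the GC correction, with the GC correction and replicate block, and with the length correction. For the inhibitor, 4 of 9 calls at high MYC (COX7A2L, COX7B, ATP5F1C, ATP5PD) and 4 of 11 at medium MYC (COX7A2L, COX8A, ATP5F1C, ATP5PO) held throughout. At high MYC the genes called higher went from 1 to 2 with equal library totals, quantile normalization, size factors from the tested genes, TMM factors, edgeR, the GC correction alone, the GC correction plus replicate block, and the length correction. The genes called lower went from 8 to 5 with DESeq2, with equal totals and with the length correction, to 4 without the filter or without the mean trend, and to 3 with quantile normalization. Leaving out 1 library gave from 1 to 2 higher (2 without high MYC control replicate 2 or inhibitor replicate 2) and from 3 to 7 lower (5 without high MYC control replicate 1, 3 without control replicate 2 or inhibitor replicate 1). At medium MYC the genes called higher went from 1 to 3 with quantile normalization and with the GC correction, alone or plus the replicate block, and to 2 with equal totals. The genes called lower went from 10 to 6 with DESeq2 and without the filter, to 5 without the mean trend, to 4 with equal totals and to 3 with quantile normalization. Leaving out 1 library gave from 5 to 10 lower (5 without medium MYC control replicate 3 or inhibitor replicate 2 or 4, 6 without control replicate 2 or 4). The median over the subunit genes moved to -0.014 (quantile), -0.026 (equal totals) and -0.011 (length correction) at high MYC, to -0.025 (equal totals) and -0.032 (quantile) at medium MYC, and for MYC level to -0.45 (GC correction, with and without the block) and -0.42 (length correction). No call for the difference in response appeared under any alternative run.

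The labels do not say whether replicate numbers pair the libraries. Deviations of same-numbered libraries correlated between -0.15 and 0.24 in the pairs of groups compared, and 4 libraries per group are too few to settle it. With the replicate block, 4 genes were higher and 33 lower for MYC level, 1 higher and 7 lower with the inhibitor at high MYC, 1 and 7 at medium MYC, and 0 for the difference in response. With the block nested within MYC level the counts were 1 and 7 at high MYC and 1 and 8 at medium MYC. Depth limits the isoforms at or near 0 reads, for which no change could be tested.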
